A study of Sus scrofa with 15 samples.

Results

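The genes described here are 44 chaperones, foldases and regulators of the unfolded protein response, chosen by symbol; no count entered the rule, but the list was drawn up with earlier results of these data known. Of these, 41 were matched to an Ensembl identifier among the 30477 genes counted. SDF2L1, ATF4 and HSP90AA1 were not matched and are not analysed here. SYVN1, an ER ubiquitin ligase, and DDIT3, the transcription factor CHOP, were listed at 0 counts in all 15 libraries, which allows no statement on their expression. The other 39 passed the filter on low counts and were tested among 14918 genes.

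Backfat, the subcutaneous fat of the back, was sampled by biopsy from growing Iberian pigs at about a year of age. The 15 pigs sequenced were selected from a larger group that was biopsied, mainly by the quantity and quality of their RNA. There were 5 pigs per diet and 1 library per pig. Control (C) pigs received a compound feed. DOP pigs received a feed made with dry olive pulp, and WCOC pigs received another feed, without olive by-product, plus a silage of wet crude olive cake and barley straw that they could eat freely. The compound feeds were given below free intake in all groups. Each diet was fed in a pen of its own, so diet and pen cannot be told apart, and p-values measure the spread between pigs within pens. Libraries held 22373715 to 34745218 counts on genes. According to the run identifiers, flow cell A carried C replicates 1 to 4 and all 5 WCOC libraries. Flow cell B carried C replicate 5 and all 5 DOP libraries, so DOP and flow cell B cannot be told apart except through that control. On flow cell A, lane 2 held C replicates 1 to 4 and WCOC replicates 1 to 3. Lane 8 of flow cell A held WCOC replicates 4 and 5. Adipocyte marker genes summed to between 16732 and 25778 CPM (counts scaled to library size with TMM factors) in every library. Skeletal muscle genes were also present: their sum reached 12628, 8522 and 65231 CPM in DOP replicates 2, 4 and 5, against at most 5407 CPM in C and 1210 CPM in WCOC.

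Chaperones bind proteins that are not yet folded and keep them from aggregating. In the endoplasmic reticulum (ER), where secreted proteins such as adipokines and collagens are folded, a shortage of folding capacity is sensed by IRE1 (gene ERN1), PERK (EIF2AK3) and ATF6, which raise ER chaperones, the ER-associated degradation (ERAD) of misfolded proteins and, through ATF4, genes of the integrated stress response. In the cytosol the factor HSF1 drives the heat shock genes, and mitochondria keep a chaperone set of their own.

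Members were mostly lower in pigs on the WCOC diet. In WCOC vs. C the log2 fold change (log2FC) was below 0 for 35 of 39 members, with a median of -0.30, whereas 49.4% of all tested genes were below 0, with a median of 0.00. At an adjusted p under 0.05 (edgeR quasi-likelihood test, Benjamini-Hochberg over all 14918 genes) 13 members fell and 0 rose, against 5.41% of all tested genes that fell and 4.60% that rose. With the additional limit of 0.58 on the size of the log2FC, the definition of a differentially expressed gene (DEG) used here, 5 members were DEGs, all lower (TRIB3, HSPB1, HSPA8, HSPH1 and DNAJA1), against 3.93% of all genes (6.25% in either direction). In 10 members every WCOC library lay below every C library, as did 3.87% of all genes.

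In DOP vs. C, 27 of 39 members had a log2FC below 0 (47.8% of all genes), with a median of -0.09. There were 0 DEGs among the members by edgeR, against 0.764% of all genes (0.550% lower). DESeq2 called 3 members (CHAC1, HSPH1 and MANF, all lower), against 2.26% of the 22920 genes in that fit. By limma-voom 0 members were called, against 0.127% of all genes. By edgeR only HYOU1 passed the adjusted p, lower in DOP (0.603% of all genes were lower and 0.322% higher by that rule). At an unadjusted p under 0.05 there were 14 lower members, against 7.98% of all genes, and 1 higher member, HSPB8, against 9.60%. In 3 members (HSPA5, DNAJB11 and HYOU1) every DOP library lay below every C library, against 1.76% of all genes. The DOP vs. C and WCOC vs. C comparisons share the 5 control libraries.

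**Figure D1:**
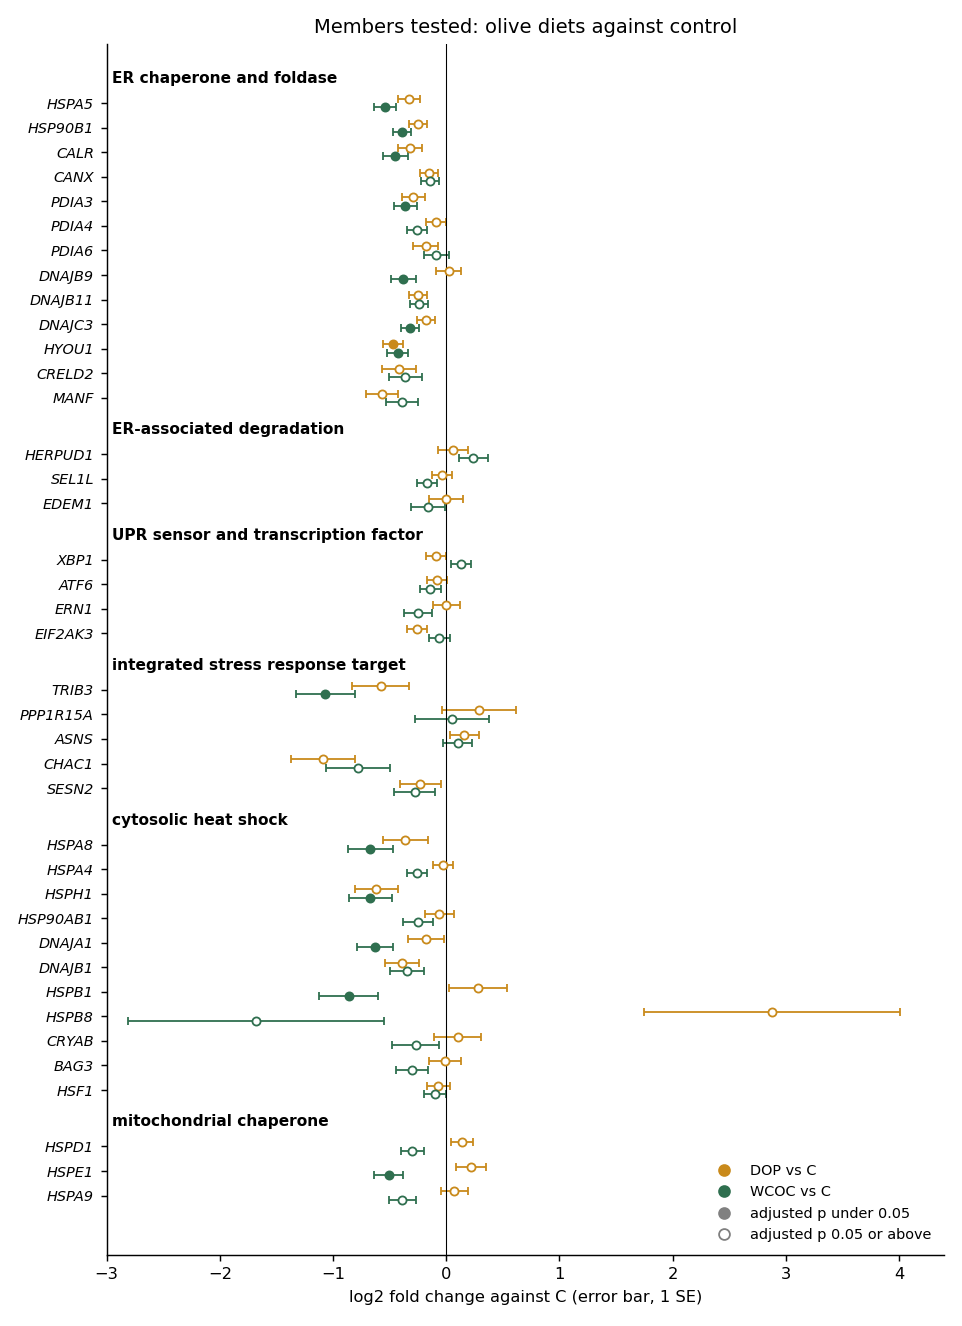
The log2 fold change of each of the 39 tested members against C, with 1 standard error, is plotted for DOP (ochre) and WCOC (green) and grouped by role. Filled points have an adjusted p under 0.05; 13 WCOC points and 1 DOP point are filled, and all of them lie to the left of 0.

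The ER chaperones and foldases formed the largest group, with 13 tested genes. All 13 had a log2FC below 0 in WCOC vs. C (-0.54 to -0.09, median -0.36), and 12 in DOP vs. C (median -0.25). In WCOC, 7 fell at the adjusted p (HSPA5, HSP90B1, CALR, PDIA3, DNAJB9, DNAJC3 and HYOU1) and 0 reached the DEG limit. Values in every library are given for the DEGs, the regulators XBP1 and ATF6, HSPA5, HSPH1 and ASNS, and the most abundant gene of each group per length; the further genes with printed values were added after their values were seen.

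Promoters of this group often held the letters of ER stress response elements. The 300 bases before the RefSeq gene start (Sscrofa11.1) were searched on both strands in 43 members and in 19556 promoters in all. The ER stress response element (ERSE, the letters CCAAT, any 9 bases and CCACG) was found in 5 of 14 ER chaperone promoters (HSP90B1, CALR, CANX, PDIA6 and CRELD2) and in that of XBP1, but in only 14 of all promoters (0.0716%). ERSE-II (ATTGG, any base and CCACG) was found in 3 of these 14 promoters (SDF2L1, HYOU1 and MANF) and in SEL1L, and in 0.0920% of all promoters. The shorter UPRE (TGACGTGG, 0.624% of all) was found in HYOU1, where it overlaps an ERSE-II. The exact letters were not found in the window of HSPA5. The search allowed no mismatch, so a sequence that differs from an element by a base was not counted. A match describes sequence, and binding was not measured. Among ER chaperones that fell at the adjusted p in WCOC vs. C, HSP90B1, CALR and HYOU1 held a match. HSPA5, PDIA3, DNAJB9 and DNAJC3 held none. CANX and PDIA6 held a match and had adjusted p of 0.258 and 0.636 there. A link between elements and diet was not tested. The promoters below are a selection, and those of CANX, PDIA6, CRELD2 and SDF2L1 are not shown. The printed promoters read 5′ to 3′ on the strand of the gene, and capitals mark the fixed letters of the elements. They lie at chr5:80531017-80531316 (minus strand, HSP90B1), chr2:66102075-66102374 (minus, CALR), chr9:46277057-46277356 (minus, HYOU1) and chr13:33657979-33658278 (plus, MANF).
HSP90B1: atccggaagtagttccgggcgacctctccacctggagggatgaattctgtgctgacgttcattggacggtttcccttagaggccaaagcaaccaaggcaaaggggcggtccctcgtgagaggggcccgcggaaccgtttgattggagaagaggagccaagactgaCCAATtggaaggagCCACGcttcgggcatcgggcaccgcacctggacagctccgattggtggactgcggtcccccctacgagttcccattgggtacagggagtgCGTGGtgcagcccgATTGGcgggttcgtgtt
CALR: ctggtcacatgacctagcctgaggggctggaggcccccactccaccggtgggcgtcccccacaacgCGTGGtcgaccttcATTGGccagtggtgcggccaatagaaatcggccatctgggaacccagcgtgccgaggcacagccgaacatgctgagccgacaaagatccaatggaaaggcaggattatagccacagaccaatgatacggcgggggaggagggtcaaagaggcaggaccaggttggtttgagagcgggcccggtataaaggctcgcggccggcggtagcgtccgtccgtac
HYOU1: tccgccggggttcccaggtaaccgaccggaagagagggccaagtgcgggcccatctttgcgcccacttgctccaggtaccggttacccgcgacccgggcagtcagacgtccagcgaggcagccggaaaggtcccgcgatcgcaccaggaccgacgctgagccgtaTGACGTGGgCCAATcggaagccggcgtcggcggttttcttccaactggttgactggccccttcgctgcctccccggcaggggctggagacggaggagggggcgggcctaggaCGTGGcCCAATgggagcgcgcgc
MANF: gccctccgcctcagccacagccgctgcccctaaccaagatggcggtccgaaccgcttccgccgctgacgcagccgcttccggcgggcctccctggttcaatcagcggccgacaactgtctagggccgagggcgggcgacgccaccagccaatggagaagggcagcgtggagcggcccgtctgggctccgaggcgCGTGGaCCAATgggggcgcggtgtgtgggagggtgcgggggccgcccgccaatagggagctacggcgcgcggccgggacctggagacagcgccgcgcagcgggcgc
HSP90B1 and HYOU1 each hold 2 elements of their kind. The last one in each ends at position -13, counted back from the base before the gene start as -1.

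**Figure D2:**
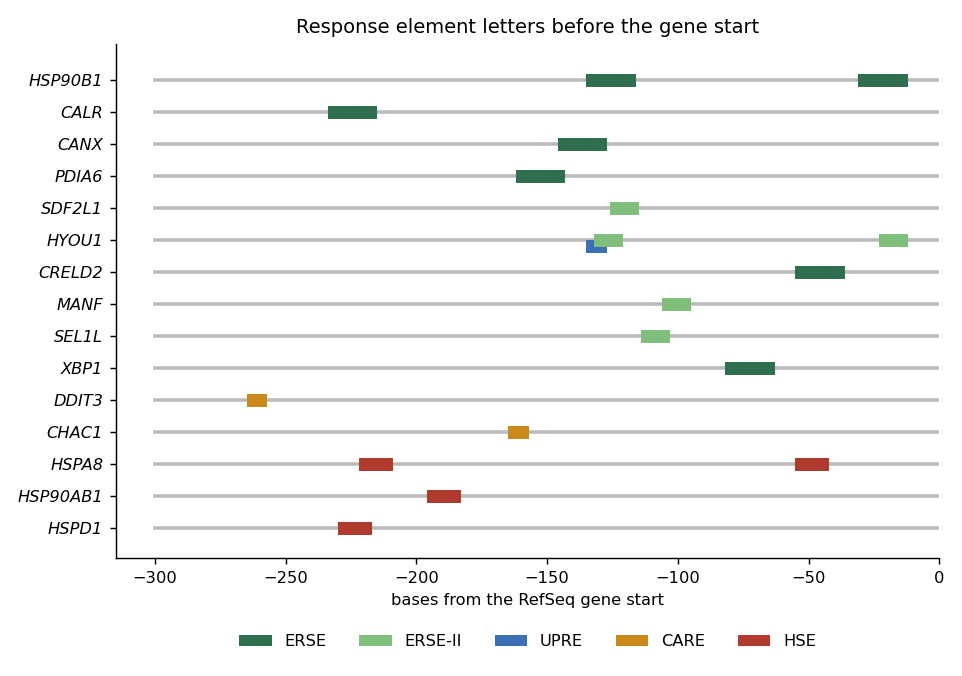
Element letters in the 300 bases before the gene start are drawn to scale for the 15 members that held any, with the distance in bases on the x axis and 1 line per gene. ERSE and ERSE-II (greens) occur in ER genes and XBP1, CARE (ochre) in DDIT3 and CHAC1, and HSE (red) in HSPA8, HSP90AB1 and HSPD1.

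HSPA5 (ENSSSCG00000005601, chromosome 1, 265930044 to 265934959) encodes BiP, the main ER member of the HSP70 family. Positions are those of RefSeq on Sscrofa11.1. It measured 257, 255, 338, 302 and 307 CPM in C, 238, 235, 225, 237 and 229 CPM in DOP, and 161, 219, 209, 190 and 224 CPM in WCOC. The 3 diets did not overlap: every C library lay above every DOP library, and every DOP library above every WCOC library. The mean fell from 292 ± 35.6 (SD, n = 5) in C to 201 ± 25.7 in WCOC, a log2FC of -0.54 ± 0.10 (SE, adjusted p = 0.00604). The mean in DOP was 233 ± 5.51, with a log2FC of -0.33 ± 0.10 (adjusted p = 0.133), and WCOC vs. DOP gave -0.21 ± 0.10 (adjusted p = 0.181). HSP90B1, the ER form of HSP90 also known as GRP94, measured 278, 255, 309, 310 and 315 CPM in C, 246, 255, 240, 261 and 229 CPM in DOP, and 205, 238, 214, 217 and 245 CPM in WCOC. Its WCOC libraries were all below C, and DOP lay between them with overlap. The log2FC was -0.39 ± 0.08 in WCOC vs. C (adjusted p = 0.00986) and -0.25 ± 0.08 in DOP vs. C (adjusted p = 0.143).

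CALR, calreticulin, holds glycoproteins for folding and was the most abundant ER chaperone per length, at 144 CPM per kb in C. It measured 244, 220, 309, 281 and 331 CPM in C, 235, 220, 214, 222 and 216 CPM in DOP, and 170, 216, 193, 207 and 230 CPM in WCOC. WCOC replicate 5 lay above the lowest control, C replicate 2, and the other WCOC libraries lay below every control. The log2FC was -0.45 ± 0.11 in WCOC vs. C (adjusted p = 0.0225) and -0.32 ± 0.11 in DOP vs. C (adjusted p = 0.158). CANX, its membrane-bound relative calnexin, was closer to control in both diets, at -0.14 ± 0.08 in WCOC and -0.15 ± 0.08 in DOP (adjusted p = 0.258 and 0.323).

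HYOU1, an ER chaperone that exchanges the nucleotide of BiP, measured 65.3, 69.7, 87.9, 83.7 and 88.2 CPM in C, 63.9, 53.6, 55.2, 57.8 and 53.6 CPM in DOP, and 54.5, 57, 54.1, 62.6 and 64.2 CPM in WCOC. Both olive diets lay fully below C and overlapped each other. The log2FC was -0.47 ± 0.09 in DOP vs. C (adjusted p = 0.0367), -0.43 ± 0.09 in WCOC vs. C (adjusted p = 0.0121) and 0.04 ± 0.09 in WCOC vs. DOP. HYOU1 lost its DOP call when any of 7 libraries was left out (C replicates 3, 4 and 5 and DOP replicates 2, 3, 4 and 5; adjusted p up to 0.113). MANF, a secreted ER protein, had a log2FC of -0.57 ± 0.14 in DOP vs. C (adjusted p = 0.0621) and -0.39 ± 0.14 in WCOC vs. C (adjusted p = 0.0882).

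Among the disulfide isomerases, PDIA3 fell in WCOC (log2FC -0.36 ± 0.10, adjusted p = 0.0345), whereas PDIA4 and PDIA6 had adjusted p of 0.0858 and 0.636. Of the 3 J-domain partners of BiP, 2 passed the adjusted p in WCOC vs. C. DNAJC3, which also restrains PERK, fell from 82.8 ± 3.43 CPM in C to 66.3 ± 7.05 CPM in WCOC (log2FC -0.32 ± 0.08, adjusted p = 0.0254). DNAJB9, a regulator of IRE1, had a log2FC of 0.02 ± 0.11 in DOP vs. C, and fell in WCOC both against C (-0.38 ± 0.11, adjusted p = 0.0405) and against DOP (-0.40 ± 0.11, adjusted p = 0.0303). DNAJB11 was lower in every DOP and every WCOC library than in any C library, by log2FC of -0.25 ± 0.08 and -0.24 ± 0.08, with adjusted p of 0.141 and 0.0693. HSPA5, HSP90B1 and HYOU1 kept the WCOC vs. C call in all 10 fits that left out 1 of the libraries compared. Within flow cell A alone HSPA5 kept the call, and HSP90B1 and HYOU1 lost it. All 3 lost it with the mean of macrophage or of fibroblast marker genes as a covariate. CALR lost it without C replicate 3 or 5 or WCOC replicate 1 or 3, PDIA3 without these or WCOC replicate 4, DNAJC3 without C replicate 5 or WCOC replicate 1, and DNAJB9 without any library but C replicate 3 and WCOC replicates 2 and 3.

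**Figure D3:**
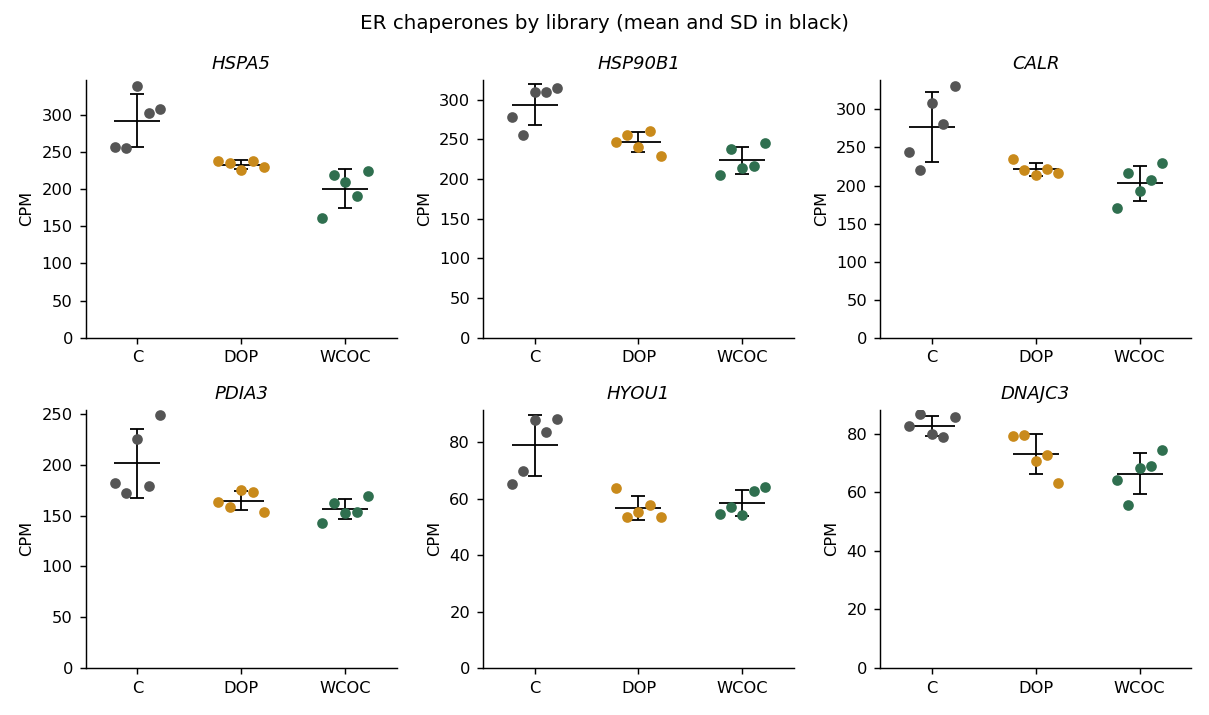
CPM of 6 ER chaperones (y axis, from 0) is plotted by diet, 1 point per pig, with the mean and SD in black. For HSPA5, HSP90B1, PDIA3, HYOU1 and DNAJC3 the 5 WCOC points all sit below the 5 C points; for CALR the groups overlap.

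The ERAD genes and the sensors did not pass the test in either diet. HERPUD1, an ERAD adaptor at the ER membrane and the most abundant of the ERAD genes per length, measured 76, 80.4, 96.6, 74.1 and 103 CPM in C, 75.4, 90, 93.9, 75.8 and 113 CPM in DOP, and 89.3, 97.3, 101, 122 and 98.9 CPM in WCOC. The diets overlapped, and the log2FC was 0.24 ± 0.13 in WCOC vs. C (adjusted p = 0.243). SEL1L and EDEM1, also ERAD genes, had log2FC of -0.17 ± 0.09 and -0.16 ± 0.15 in WCOC. XBP1, the factor whose transcript IRE1 splices, measured 133, 138, 146, 146 and 153 CPM in C, 153, 124, 154, 121 and 119 CPM in DOP, and 146, 155, 144, 162 and 174 CPM in WCOC. It overlapped across diets, with log2FC of 0.13 ± 0.09 in WCOC and -0.09 ± 0.09 in DOP against C. Counts per gene do not separate spliced from unspliced XBP1. ATF6 measured 93.5, 109, 89.4, 97.9 and 116 CPM in C, 102, 104, 92.8, 91.6 and 87.6 CPM in DOP, and 98.4, 85.2, 102, 79.3 and 93.1 CPM in WCOC. It also overlapped in all comparisons (log2FC -0.14 ± 0.09 in WCOC and -0.08 ± 0.09 in DOP). ERN1 and EIF2AK3 had adjusted p of 0.197 and 0.706 in WCOC vs. C, and 0.99 and 0.157 in DOP vs. C.

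Of 5 tested targets of the integrated stress response, 1 (TRIB3) fell in WCOC vs. C and 0 passed the adjusted p in DOP vs. C by edgeR, with 2 lower there at an unadjusted p under 0.05. TRIB3 (ENSSSCG00000039862, chromosome 17, 34808273 to 34819592), a pseudokinase induced through ATF4 and CHOP, measured 67.2, 48.8, 44.9, 43.7 and 29.2 CPM in C, 36.9, 40.3, 20.8, 41.6 and 16.8 CPM in DOP, and 18.9, 22.2, 21.6, 19.9 and 28.8 CPM in WCOC. Every WCOC library lay below every C library, and the DOP libraries spanned both ranges. The mean fell from 46.8 ± 13.7 CPM to 22.3 ± 3.85 CPM, a log2FC of -1.07 ± 0.26 in WCOC vs. C (adjusted p = 0.0188), and was 31.3 ± 11.6 CPM in DOP (log2FC -0.58 ± 0.25, adjusted p = 0.252). Without WCOC replicate 1 the adjusted p was 0.0556. The DOP value turned to a log2FC of 0.10 with flow cell as a covariate, where C replicate 5, at 29.2 CPM, is the only control on the flow cell of DOP. ASNS, asparagine synthetase and another ATF4 target, measured 49.5, 38.4, 40.2, 43.8 and 32.4 CPM in C, 39.3, 40.6, 56, 48.4 and 43.9 CPM in DOP, and 41.2, 52.4, 44.5, 35.4 and 45.2 CPM in WCOC. The diets overlapped, with log2FC of 0.10 ± 0.13 in WCOC and 0.16 ± 0.13 in DOP. The CARE letters to which ATF4 binds (TGATG, any base and AA, in 3.06% of all promoters) were found before CHAC1 and DDIT3 in this group. The windows follow the RefSeq gene start alone, so a window without a match, such as that of ASNS, does not show that the gene lacks the element. CHAC1, a glutathione-degrading enzyme counted at low level (20 to 112 counts per library), had log2FC of -1.09 ± 0.28 in DOP and -0.78 ± 0.28 in WCOC (adjusted p = 0.08 and 0.0923), with C replicate 4 high at 4.36 CPM. SESN2 and PPP1R15A, a stress sensor and a phosphatase subunit that reverses PERK signalling, had adjusted p of at least 0.347 against C in either diet.

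The cytosolic heat shock genes were lower in WCOC too, with wider spread between libraries. All 11 tested genes had a log2FC below 0 in WCOC vs. C (median -0.35), 4 of them DEGs, against 8 of 11 in DOP vs. C (median -0.06). The heat shock element (HSE), searched on both strands as GAA, TTC and GAA or as TTC, GAA and TTC with any 2 bases between, was found before HSPA8, HSP90AB1 and the mitochondrial HSPD1, and in 0.389% of all promoters. The promoters of HSPA8 (chr9:49986761-49987060, minus strand) and HSPD1 (chr15:101373499-101373798, minus strand) are shown for comparison with the ER genes above, with the fixed letters of the HSE in capitals.
HSPA8: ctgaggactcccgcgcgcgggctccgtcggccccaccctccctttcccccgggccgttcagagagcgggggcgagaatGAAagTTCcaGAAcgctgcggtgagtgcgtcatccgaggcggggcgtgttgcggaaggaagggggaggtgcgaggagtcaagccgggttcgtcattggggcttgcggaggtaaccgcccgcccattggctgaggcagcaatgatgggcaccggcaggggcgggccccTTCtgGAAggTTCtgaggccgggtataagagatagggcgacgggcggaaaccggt
HSPD1: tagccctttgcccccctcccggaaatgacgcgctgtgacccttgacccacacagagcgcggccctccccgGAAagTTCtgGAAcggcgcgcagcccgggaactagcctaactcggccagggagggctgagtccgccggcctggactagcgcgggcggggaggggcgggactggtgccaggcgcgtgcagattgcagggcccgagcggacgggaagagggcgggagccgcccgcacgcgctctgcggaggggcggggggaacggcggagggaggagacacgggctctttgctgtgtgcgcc
HSPA8 holds 2 matches and HSPD1 holds 1. The letters were not found before HSPH1, DNAJA1 or HSPB1. The match of HSPD1 lies between the starts of HSPD1 and its neighbour HSPE1. It crosses the far end of the HSPE1 window, so it was not counted for HSPE1.

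HSPA8 (ENSSSCG00000015140, chromosome 9, 49982278 to 49986760), the constitutive cytosolic HSP70, measured 616, 577, 734, 704 and 746 CPM in C, 486, 636, 375, 460 and 677 CPM in DOP, and 299, 316, 410, 507 and 587 CPM in WCOC. WCOC replicates 1 and 2 were the lowest of all libraries, WCOC replicate 5 lay within the C range, and DOP overlapped both. The log2FC was -0.67 ± 0.20 in WCOC vs. C (adjusted p = 0.0439) and -0.36 ± 0.20 in DOP vs. C (adjusted p = 0.367). HSPH1 (ENSSSCG00000009334, chromosome 11, 7733874 to 7759528), an HSP110 that recycles HSP70, measured 71, 63.7, 82.1, 72.4 and 82.6 CPM in C, 50.6, 68.6, 39.2, 42.1 and 41.7 CPM in DOP, and 40.2, 31.3, 43, 55 and 64.9 CPM in WCOC. DOP replicate 2 and WCOC replicate 5 reached the C range and the other olive-diet libraries lay below it. The log2FC was -0.67 ± 0.19 in WCOC vs. C (adjusted p = 0.036) and -0.62 ± 0.19 in DOP vs. C (adjusted p = 0.122). For HSPA8 and HSPH1 the highest WCOC values were those of replicates 4 and 5, the WCOC libraries on lane 8. For DNAJA1, WCOC replicate 4 lay below WCOC replicate 3. The part of lane in these values was not tested.

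DNAJA1 (ENSSSCG00000011000, chromosome 10, 33432529 to 33445556), a J-domain partner of HSPA8, measured 139, 149, 133, 148 and 143 CPM in C, 122, 179, 103, 116 and 110 CPM in DOP, and 73.1, 69.2, 99.9, 97.1 and 122 CPM in WCOC. Every WCOC library lay below every C library, and DOP replicate 2 was the highest of all. The log2FC was -0.63 ± 0.16 in WCOC vs. C (adjusted p = 0.0266) and -0.18 ± 0.16 in DOP vs. C (adjusted p = 0.619). DOP replicate 2 was also the highest DOP library for HSPH1, HSPB1 and PPP1R15A. Its immediate early genes (FOS, JUN, EGR1 and others) summed to 2187 CPM, against 160 to 375 CPM in the other 14 libraries. Without DOP replicate 2, 31 of 39 members had a log2FC below 0 in DOP vs. C (median -0.14), against 27 (median -0.09) with it. The part of the immediate early genes in the DOP values was not tested.

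HSPB1 (ENSSSCG00000039962, chromosome 3, 10038074 to 10039441), the small heat shock protein HSP27 and the most abundant member per length (757 CPM per kb in C), measured 599, 280, 628, 537 and 318 CPM in C, 440, 798, 521, 652 and 452 CPM in DOP, and 168, 358, 288, 258 and 233 CPM in WCOC. C replicates 2 and 5 overlapped WCOC, while every DOP library lay above every WCOC library. The log2FC was -0.86 ± 0.26 in WCOC vs. C (adjusted p = 0.0471) and -1.13 ± 0.26 in WCOC vs. DOP (adjusted p = 0.0143), and 0.28 ± 0.26 in DOP vs. C (adjusted p = 0.629). HSPB8 (ENSSSCG00000009844, chromosome 14, 33626125 to 33639824), a small heat shock protein abundant in muscle, measured 9.66, 1.45, 26.9, 3.39 and 1.69 CPM in C, 1.16, 75.4, 1.61, 41.4 and 198 CPM in DOP, and 2.68, 1.76, 1.57, 5.5 and 1.98 CPM in WCOC. The high values were those of DOP replicates 2, 4 and 5, the libraries highest in skeletal muscle genes. Its log2FC of -4.56 ± 1.23 in WCOC vs. DOP (adjusted p = 0.0294) was 0.95 without these 3 libraries, its log2FC in WCOC vs. C was -1.68 ± 1.13 (adjusted p = 0.364), and that of 2.88 ± 1.13 in DOP vs. C (adjusted p = 0.209) was -2.63. HSP90AB1, HSPA4, DNAJB1, CRYAB, BAG3 and HSF1, the heat shock factor itself, had log2FC of -0.35 to -0.10 in WCOC vs. C and did not pass the adjusted p. In WCOC vs. C the calls of HSPA8 and HSPH1 were lost without any library but C replicate 2 and WCOC replicate 5, that of HSPB1 without any but C replicates 2 and 5 and WCOC replicate 2, and that of DNAJA1 without WCOC replicate 1 or 4. HSPA8, HSP90AB1, HSPD1 and HSPE1 belong to genes with many near-identical processed copies in mammals, and how the counting treated reads shared with such copies is not known here.

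**Figure D4:**
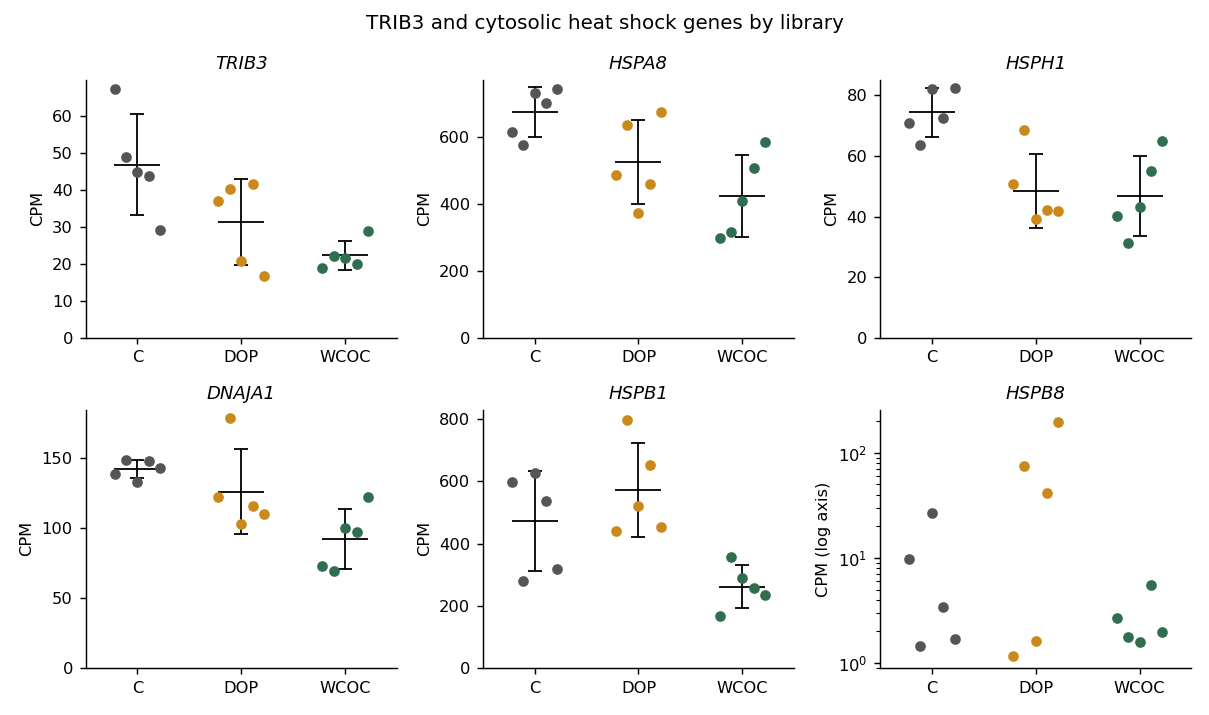
CPM of TRIB3 and 5 cytosolic heat shock genes is plotted by diet, 1 point per pig, with the mean and SD in black; HSPB8 is on a log axis without mean. WCOC points of TRIB3 and DNAJA1 all sit below C, and HSPB8 is high in 3 DOP libraries (41.4 to 198 CPM).

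The mitochondrial chaperones HSPD1 (HSP60), its partner HSPE1 (HSP10) and HSPA9 (mortalin) had log2FC below 0 in WCOC vs. C and above 0 in DOP vs. C, where 0 of 3 passed the test, and all 3 fell in WCOC vs. DOP. HSPD1 and HSPE1 lie head to head on chromosome 15, with starts 521 bases apart. HSPE1 (ENSSSCG00000016078, chromosome 15, 101374019 to 101376146) measured 135, 98.9, 113, 122 and 102 CPM in C, 123, 137, 132, 155 and 121 CPM in DOP, and 66.9, 96.2, 89.4, 61.6 and 85.8 CPM in WCOC. Every WCOC library lay below every C and every DOP library, and DOP overlapped C. HSPE1 fell in WCOC against C (log2FC -0.51 ± 0.13, adjusted p = 0.0222) and against DOP (-0.74 ± 0.13, adjusted p = 0.00392), and was 0.22 ± 0.13 in DOP vs. C (adjusted p = 0.388). HSPD1 measured 353, 314, 295, 353 and 292 CPM in C, 318, 362, 411, 366 and 309 CPM in DOP, and 245, 281, 288, 220 and 273 CPM in WCOC. WCOC lay fully below both other diets, with a log2FC of -0.43 ± 0.10 against DOP (adjusted p = 0.018) and -0.30 ± 0.10 against C (adjusted p = 0.0838). HSPA9 fell in WCOC vs. DOP (-0.47 ± 0.12, adjusted p = 0.0253), with -0.39 ± 0.12 against C (adjusted p = 0.0521). HSPE1 lost its call against C without WCOC replicate 1 or 4.

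**Figure D5:**
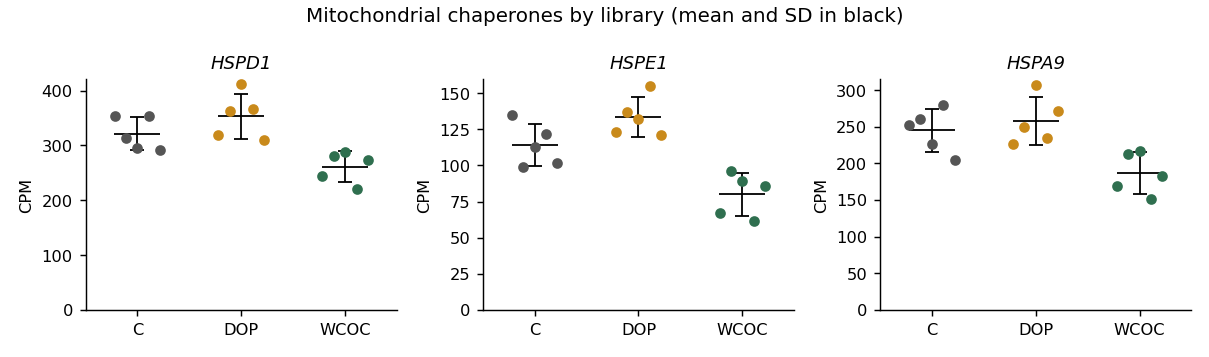
CPM of the 3 mitochondrial chaperones (y axis, from 0) is plotted by diet, 1 point per pig, with the mean and SD in black. All 5 WCOC points sit below all 5 DOP points in each panel.

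Over all members, WCOC vs. DOP gave 28 of 39 with a log2FC below 0 (49.9% of all genes; median -0.14). It gave 6 genes lower at the adjusted p (HSPE1, HSPB1, HSPD1, HSPA9, HSPB8 and DNAJB9; 7.20% of all genes were lower and 5.15% higher by that rule) and 3 DEGs, all lower (HSPE1, HSPB1 and HSPB8, against 5.11%; 7.76% in either direction). In 5 members (HSPA5, HSPB1 and the 3 mitochondrial genes) every WCOC library lay below every DOP library, against 4.77% of all genes. HSPE1, HSPB1 and HSPD1 kept the adjusted p when any of the 10 libraries was left out, whereas HSPA9 lost it without DOP replicate 5 or WCOC replicate 1, 4 or 5, DNAJB9 without these or DOP replicate 2 or 4, and HSPB8 without DOP replicate 2 or 5 or WCOC replicate 1, 2, 3 or 5. With flow cell as a covariate 0 members passed, and only 1 gene (0.0067%) of all 14918 was a DEG. In that fit 20 of 39 members had a log2FC below 0, with a median of -0.01, against 28 and -0.14 without the covariate. All WCOC libraries were on flow cell A and all DOP libraries on flow cell B.

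Markers of other cell types and of cell division moved with the diets. In the macrophage, osteoclast-like giant cell, fibroblast, endothelial, adipocyte and cell division lists, 0 of the matched markers were at 0 in all libraries, while 1 of 14 skeletal muscle markers and 1 of 10 plasma and B cell markers were. Macrophage genes were lower in WCOC than in C for 13 of 13 markers, 6 of them DEGs, and summed to 149 to 386 CPM against 299 to 887 CPM; in DOP they were lower for 12 of 13, with 1 DEG. Fibroblast genes were lower for 8 of 8 markers, 4 of them DEGs (14441 to 25267 CPM against 22963 to 34573 CPM), and 8 of 9 cell division genes were DEGs (19.2 to 31.5 CPM against 48.9 to 95.1 CPM). Osteoclast-like giant cell genes, a set of macrophage-lineage markers, were lower for 6 of 6 tested markers in both olive diets, 5 of them DEGs in each (57.9 to 873 CPM in C, 4.53 to 26.9 CPM in DOP and 21.2 to 109 CPM in WCOC). In WCOC vs. C, endothelial genes were higher for 7 of 7 tested markers, 3 of them at the adjusted p (1044 to 1707 CPM against 953 to 1188 CPM), and adipocyte genes for 6 of 9, 2 of them at the adjusted p (17804 to 25778 CPM against 16732 to 21873 CPM). In DOP vs. C, 0 endothelial and 0 adipocyte markers passed by edgeR. At an unadjusted p under 0.05, 4 endothelial markers were higher there, and 1 adipocyte marker was higher and 1 lower. By that rule 4 adipocyte markers were higher and 1 lower in WCOC vs. C. With the mean of the macrophage list as a covariate 0 members passed the adjusted p in WCOC vs. C, and likewise with that of the fibroblast list, a covariate chosen after seeing the data; 31 of 39 members had a log2FC below 0 in each of these fits. Of all 14918 genes, 34 (0.228%) and 33 were DEGs in them. In bulk tissue, fewer cells of a type and less RNA per cell cannot be told apart.

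Further genes of these pathways, from lists that hold no member, gave the following. Of 30 other cytosolic chaperones, 9 fell in WCOC vs. C and 0 rose at the adjusted p. The DEG among them was HSPA4L, an HSP110 relative (log2FC -0.58 ± 0.15, adjusted p = 0.0302). The others were CCT3, CCT4, CCT8 and TCP1, subunits of the chaperonin that folds actin and tubulin, the HSP90 partners FKBP4, STIP1 and CACYBP, and DNAJA2. Of 21 other ER folding and glycosylation genes 0 passed the adjusted p by edgeR, with 10 lower at an unadjusted p under 0.05 and a median log2FC of -0.20, and of 20 other ER degradation and translocation genes 0 passed, with 3 lower and 2 higher unadjusted. Of 9 other mitochondrial chaperones and proteases 0 passed, with 3 lower and 1 higher unadjusted (LONP1, a matrix protease, log2FC 0.31) and a median log2FC of -0.15; in WCOC vs. DOP 3 of them were lower at the adjusted p. Of 22 other genes of the integrated stress response 4 fell, including the DEGs CTH (cystathionine gamma-lyase, -0.92 ± 0.26, adjusted p = 0.0355), ATF5 (a factor related to ATF4, -0.76 ± 0.19, adjusted p = 0.0222) and MTHFD2 (a mitochondrial folate enzyme, -0.65 ± 0.16, adjusted p = 0.0192). In DOP vs. C only CEBPG, of the same list, passed the adjusted p (-0.29 ± 0.06, adjusted p = 0.0452). In WCOC vs. DOP the DEGs of largest size among the cytosolic chaperones were FKBP5, a glucocorticoid-induced HSP90 partner (-0.98 ± 0.17, adjusted p = 0.00413), and HSPB7, a small heat shock protein of muscle (-4.33 ± 1.33, adjusted p = 0.0456). HSPB7 measured 21.4 ± 25.2 CPM (mean and SD) in DOP and 1.06 ± 0.974 CPM in WCOC, and the part of muscle content in it was not tested. In the integrated stress response the largest were CTH (-0.82 ± 0.26), DDIT4 (-0.76 ± 0.21) and SLC3A2 (-0.69 ± 0.18), with adjusted p of 0.0498, 0.0324 and 0.024. With flow cell as a covariate only 1 of 14918 genes was a DEG in WCOC vs. DOP.

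How members varied between pigs of the same diet was described with log2 CPM centred within diets, for HSPA5, HSPH1 and ASNS against the other tested members (111 relations over 15 libraries, 100000 permutations within diets). By permutation, 0 relations passed an adjusted p under 0.05, and 5, 7 and 6 of 38 had an unadjusted p under 0.05. HSPA5 varied most closely with CALR (r = 0.86, rho = 0.81, permutation p = 0.0029 and 0.009, adjusted 0.059 and 0.17) and HSP90B1 (r = 0.81, rho = 0.81, permutation p = 0.0012 and 0.0047, adjusted 0.059 and 0.15). Within flow cell A these were 0.91 and 0.86, and without the 2 libraries farthest from the median of HSPA5 they were 0.75 and 0.72. HSPH1 varied most closely with DNAJA1 (r = 0.86, rho = 0.71, permutation p = 0.0025 and 0.016, adjusted 0.059 and 0.2), which fell to 0.63 without DOP replicate 2 and WCOC replicate 5. ASNS varied most closely with the mitochondrial HSPD1 (r = 0.82, rho = 0.82, permutation p = 0.00069 and 0.00086, adjusted 0.059 and 0.095; 0.85 within flow cell A and 0.75 without its 2 farthest libraries). Flow cell B held 6 libraries of 2 diets, 1 of them a single control, and gave no value of its own. All points share their library's depth and cell makeup.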

How the data were processed

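RNA-seq of backfat from 15 Iberian pigs was analysed. The authors aligned reads to Sscrofa11.1 with HISAT2, set as strand-specific, and counted them per gene with HTSeq; the deposited values are these raw counts. The counting's strand setting and its annotation release: not given in the sources used here, so counts of overlapping genes are uncertain. Lines for reads assigned to no gene (23.4% to 32.8% of a library) were left out. Diet came from the labels, and flow cell and lane from run identifiers.

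Symbols were matched to 14864 identifiers. The members and gene lists were chosen with earlier results of these data known. Low genes were removed with filterByExpr and TMM scaling applied (factors 0.857 to 1.21) in edgeR 4.0.16 (R 4.3.3). The quasi-likelihood fit took all 15 libraries, with diet as the only factor (common dispersion 0.0814). Tests were two-sided. DEGs needed a Benjamini-Hochberg adjusted p under 0.05 together with a log2FC of 0.58 or more in size. Of the deposited counts, CPM and log2 CPM (prior count 1) were computed here; CPM per kb used RefSeq exon lengths, while counts follow Ensembl models. SEs come from the coefficient and its F statistic. The median log2FC of all genes lay within 0.014 of 0 under each scaling.

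Named with values in every library were members called in any comparison, HSPA5, HSPH1, ASNS, XBP1 and ATF6, and the most abundant gene per length of each group; of the pathway lists, up to 3 DEGs of at least 1 CPM per comparison. The workflow was tested on simulated data. Alternatives were other size factors and filters, DESeq2 1.42.0, limma-voom (limma 3.58.1), fits on the diets compared only, a replicate block, flow cell, marker lists as covariates, no log2FC limit, and each library left out. Promoter sequences are from the RefSeq Sscrofa11.1 assembly.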

Additional observations from a re-analysis of the deposited data

Results flagged for a closer look

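In 117 sets of 5 libraries (39 members in 3 diets), 6 held a library far from the other 4 by Dixon's criterion (critical value 0.71), and chance gives about 1 set in 20. In DOP replicate 2, PPP1R15A was high at 38.9 CPM (next 13.1), DNAJA1 was high at 179 CPM (next 122) and SESN2 was low at 7.59 CPM (next 8.02). PDIA4 was high in DOP replicate 4 at 104 CPM (next 92.5). CHAC1 was high in C replicate 4 at 4.36 CPM (next 2.36). HSPB8 was high in WCOC replicate 4 at 5.5 CPM (next 2.68), the WCOC library with the most skeletal muscle counts (1210 CPM).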

How the results depend on the processing

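The number of members lower in WCOC vs. C depended on the processing. Of 5 DEGs, 3 remained without a filter, 3 with flow cell as a covariate and 2 within flow cell A. With the skeletal muscle list as a covariate 2 remained, and 0 with the macrophage or fibroblast list. The DEG share of all genes, 6.25% in the main fit, was 3.51%, 4.56%, 3.31%, 5.99%, 0.228% and 0.221% in these fits, in order. With no limit on the log2FC 13 members passed. The 13 members past the adjusted p became 8 with the flow cell covariate and 0 with the macrophage or fibroblast list. Within flow cell A they became 3 (HSPA5, DNAJA1 and TRIB3). In DOP vs. C, DESeq2 called 3 DEGs (0 by edgeR) and 7 at the adjusted p, and 2.26% of 22920 genes were DEGs by DESeq2. With no limit 1 passed. The single gene past the adjusted p became 0 by limma-voom, on the 2 diets alone, and with flow cell, muscle or macrophage covariates. It also became 0 without the muscle-rich DOP libraries. The DEG share of all genes, 0.764% in the main fit, was 0.127%, 0.0138%, 1.14%, 0.288%, 0.0335% and 0% there, in order. In WCOC vs. DOP the 3 DEGs became 6 with no limit. They became 0 with flow cell, 1 with the muscle list, 1 with the fibroblast list and 0 without the muscle-rich DOP libraries. The 6 past the adjusted p became 0, 2, 1 and 0 in these fits, in order. The DEG share of all genes, 7.76% in the main fit, was 0.0067%, 3%, 3.13% and 0.517% there. The cause was not tested. The fibroblast covariate, leaving out DOP replicates 2, 4 and 5 and the counts at the adjusted p alone were chosen after seeing the data.

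Leaving out 1 library at a time gave 0 to 1 DEGs in DOP vs. C. It gave 0 to 6 in WCOC vs. C and 2 to 3 in WCOC vs. DOP. Members past the adjusted p were 0 to 2, 3 to 14 and 3 to 6. Of all genes, 0% to 1.33%, 3.11% to 7.71% and 4.25% to 8.57% were DEGs in these fits. The lowest WCOC vs. C counts, 0 and 3, came without WCOC replicate 1, where 3.11% of all genes were DEGs. Leaving out C replicates 1, 3, 4 or 5 left 3, 2, 2 and 3 DEGs (5.6%, 3.54%, 5.58% and 4.45% of all genes). Leaving out WCOC replicates 3 and 4 left 2 and 1 (4.72% and 3.96%). Replicate numbers did not pair the libraries (15 pairs of the same number, r -0.495 to 0.345, 3 of them over 0.1). With the replicate block WCOC vs. C had 0 DEGs and 3 members past the adjusted p. In that fit DOP vs. C had 0 and 0, and WCOC vs. DOP had 2 and 2. The DEG shares of all genes were then 3.17%, 0% and 3.76%.

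Reversed were TRIB3 in DOP vs. C (0.10 with flow cell as a covariate) and HSPB8 without the muscle-rich DOP libraries (-2.63 in DOP vs. C and 0.95 in WCOC vs. DOP). Over the other settings of single members, 906 kept direction and side of the threshold, 169 lost the threshold and 25 gained it. The relations with HSPA5, HSPH1 and ASNS past the adjusted p stayed at 0 with the other size factors and within flow cell A, and 1 passed for ASNS without its 2 farthest libraries.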
